A study of Homo sapiens with 9 samples.

Results

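The H3K4me3 map of control HEL cells was built from the 3 NTC libraries, and it consists of 16233 regions that were called in every one of them. Peaks that shared at least 1 bp were merged across the 3 libraries into 25823 regions, and the regions with a peak in all 3 were kept, which is 62.9% of the merged regions. The series holds 99358 peaks in 9 CUT&RUN libraries, of which 65496 are NTC peaks. CUT&RUN directs a nuclease to a chromatin mark with an antibody, and the released fragments are sequenced. HEL is an established human erythroleukemia line, grown in RPMI with 10% FBS, and all 9 libraries come from it. The NTC cells carried a non-targeting control guide delivered with Cas9 by lentivirus, and the other 6 libraries, 2 per gene, come from cells in which METTL3, METTL14 or WTAP was knocked out (KO). These 3 genes encode subunits of the m6A RNA methyltransferase. The transduced cells were used as populations and not as single clones, and no source says whether libraries of a group came from separate cultures, so the spread between them may be technical.

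H3K4me3 is trimethylation of lysine 4 of histone H3. It lies on the nucleosomes that flank the start of genes that are transcribed or ready to be transcribed, and it is densest at CpG islands, where CpG-binding subunits recruit the methyltransferases that deposit it. HEL cells carry features of erythroid precursors and of megakaryocytes, which share a progenitor and the factors GATA1 and TAL1. Signal is given throughout in the calibrated coverage units of the deposited peak lists, summed over the peaks of 1 library in a region or at the starts of a gene. It comes from pooled cells, so a mark on fewer cells and a lower density per cell cannot be told apart.

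To show what marked and unmarked promoters look like, 200 bases are printed from the GRCh37 genome at 5 genes, on the strand of the gene, with each CpG in capitals. They are the exon-free stretches nearest to the start, and for the first 4 genes they lie wholly inside a region called in all 3 NTC libraries. SRPK1, a kinase of splicing factors, is the gene at the strongest promoter region, and its stretch lies 1033 bases downstream of the start at chr6:35887642-35887841, minus strand. GATA1, the master factor of the erythroid lineage, is shown upstream of its start at chrX:48644748-48644947, plus strand. KLF1, an erythroid activator of globin genes, is shown upstream of its start at chr19:12998016-12998215, minus strand. EPOR, the erythropoietin receptor, is shown downstream of its start at chr19:11494569-11494768, minus strand. MPO, the neutrophil myeloperoxidase, is shown upstream of its start at chr17:56358297-56358496, minus strand, and had no peak in any of the 9 libraries.
SRPK1: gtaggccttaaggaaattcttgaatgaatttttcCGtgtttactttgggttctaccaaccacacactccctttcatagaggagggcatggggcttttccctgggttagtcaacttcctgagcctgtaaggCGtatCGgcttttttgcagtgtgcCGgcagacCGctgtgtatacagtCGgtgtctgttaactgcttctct
GATA1: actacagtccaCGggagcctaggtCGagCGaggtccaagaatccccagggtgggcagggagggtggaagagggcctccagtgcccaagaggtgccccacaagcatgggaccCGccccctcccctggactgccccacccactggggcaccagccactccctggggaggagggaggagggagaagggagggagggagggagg
KLF1: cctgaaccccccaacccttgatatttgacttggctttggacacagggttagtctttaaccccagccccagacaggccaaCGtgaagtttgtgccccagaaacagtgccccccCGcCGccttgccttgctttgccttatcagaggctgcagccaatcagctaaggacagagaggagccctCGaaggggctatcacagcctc
EPOR: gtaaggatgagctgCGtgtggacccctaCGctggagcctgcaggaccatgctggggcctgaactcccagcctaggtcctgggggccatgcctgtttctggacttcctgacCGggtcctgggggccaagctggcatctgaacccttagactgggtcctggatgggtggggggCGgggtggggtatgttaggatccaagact
MPO: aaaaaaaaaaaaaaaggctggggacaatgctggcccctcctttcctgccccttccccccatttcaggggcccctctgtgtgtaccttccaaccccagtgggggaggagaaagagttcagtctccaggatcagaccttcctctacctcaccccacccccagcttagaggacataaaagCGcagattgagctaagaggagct
The marked stretches held 6 CpGs at SRPK1 and 4 each at GATA1, KLF1 and EPOR. The unmarked stretch at MPO held 1. The stretches are chosen examples on different sides of the start, and MPO is the only unmarked gene among them. Their counts therefore do not compare marked with unmarked promoters in general.

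Most control regions lay at promoters. Of the 16233 regions, 11041 (68.0%) came within 1 kb of an annotated transcription start, 2806 (17.3%) lay in introns, 1847 (11.4%) between genes and 539 (3.32%) in exons. Of the promoter regions, 88.6% were at the start of a protein-coding gene and 8.92% at the start of a long non-coding RNA only. The regions outside promoters had their centres a median of 7.95 kb from the nearest start, and 6.01% of them were farther than 50 kb. All regions together covered 16.9 Mb, or 0.546% of the genome.

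Promoter regions were wider and stronger than the others. The median width was 1106 bp at promoters and 744.5 bp in introns, and the median signal was 3771 at promoters, 1917 between genes and 1551 in introns. When regions were ranked by mean signal and divided into deciles, the share at promoters was 45.6% in the lowest decile and 84.8% in the highest, while the intron share was 31.8% and 6.83%. The median width was 428 bp in the lowest decile and 1732.5 bp in the highest.

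**Figure D1:**
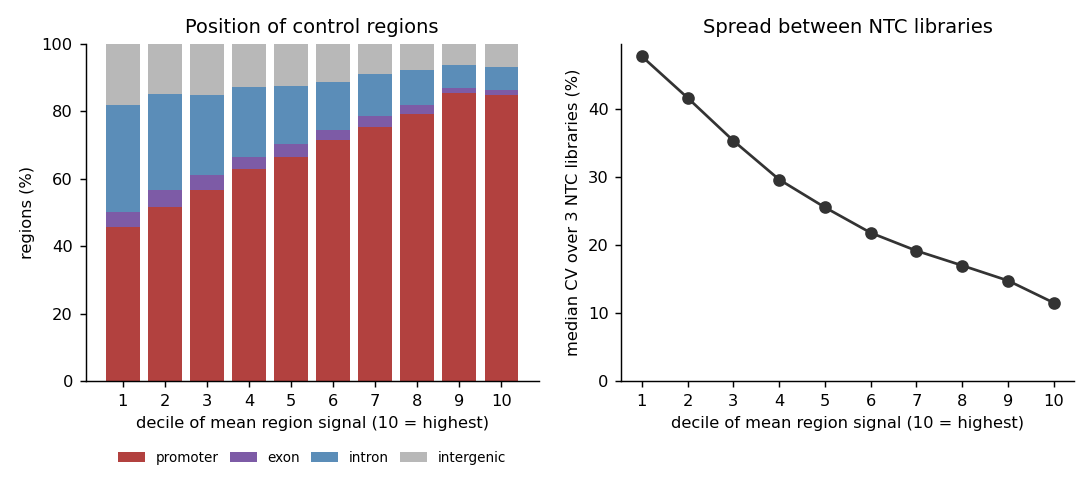
Left, share of the control regions (%) at promoters, exons, introns and between genes in each decile of mean region signal. Right, median coefficient of variation (CV, %) of region signal over the 3 NTC libraries in each decile. The promoter share was 45.6% in the lowest and 84.8% in the highest decile, and the CV was 47.8% and 11.5%.

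Around the starts of genes marked in all 3 libraries, coverage was asymmetric. Of the 8468 canonical starts of such genes, 66.3% had a control region over the position 100 bp upstream, where coverage was highest, and 65.3% over the start itself. With the peaks of single libraries, 60.2%, 63.0% and 64.3% were covered at 100 bp upstream in NTC 1, NTC 2 and NTC 3, and fewer, 49.5%, 49.9% and 51.2%, at 300 bp downstream, before a second rise to 52.8%, 53.3% and 54.3% at 600 bp. Coverage by control regions at 1000 bp was 38.2% downstream and 20.6% upstream, and at 2000 bp it was 6.78% and 3.22%. The genes had been chosen for a peak within 1 kb, so that the height of this profile follows from the choice.

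**Figure D2:**
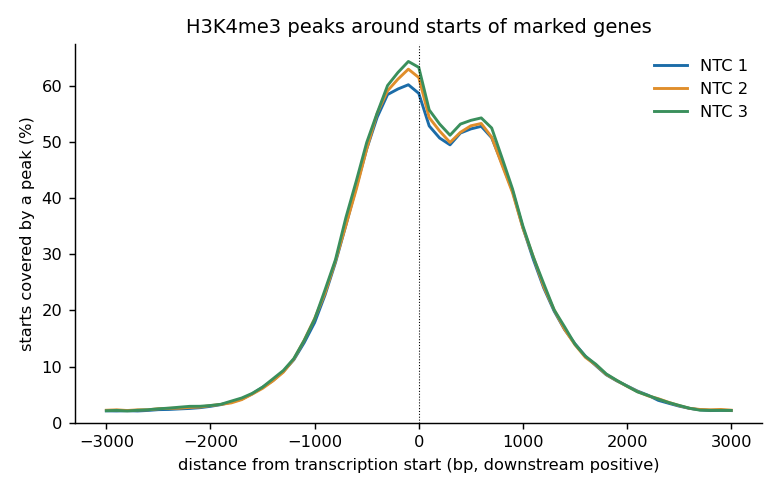
Share of the starts of marked genes (%) covered by a peak, against the distance from the start in bp with downstream positive, 1 line for each NTC library. The lines of the 3 libraries lie close together, are highest at 100 bp upstream (60.2% to 64.3%) and show a second, lower maximum downstream (52.8% to 54.3% at 600 bp).

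The 3 NTC libraries held 21831, 21940 and 21724 peaks (21832 ± 108, SD, n = 3). Between 83.8% and 85.0% of the peaks of one library overlapped a peak of another. Across the 16233 regions, log2 signal correlated between libraries with Pearson's r of 0.905 to 0.912 and Spearman's rho of 0.939 to 0.946. These are descriptions across regions called in all 3 libraries, and regions are not independent replicates. No peak had the same coordinates and signal in a pair of libraries, so none of them was the same list deposited again.

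The spread between NTC libraries depended on the strength of the region. The median CV was 22.7% over all regions, 47.8% in the lowest decile and 11.5% in the highest. NTC 3 had the highest signal in 65.0% of regions, and its median ratio to NTC 1 was 1.27. With each library divided by its own median region signal, the median CV was 19.1%.

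Absence of a call did not always go with weak signal. Most of the 9590 regions called in 1 or 2 NTC libraries only were weak. Their median signal was 306 where called in 1 library and 616 where called in 2, against 2964 for control regions. Of the 9590, 905 (9.44%) had a mean signal, over the libraries that called them, above 10837. This is the level that the strongest decile of the control regions exceeds. Of these 905 regions, 87.6% were at promoters and 85.0% held a peak in a KO library. For equally strong regions called in all 3 libraries the shares were 84.8% and 88.8%. The peaks of the 905 regions had a median width of 1819.5 bp and 52.4% of them were wider than 1800 bp, against 20.4% of the peaks at equally strong regions called in all 3. In each of the 9 lists, no peak was wider than 2000 bp. Whether a limit on width took part in these missing calls was not tested, and for this reason a gene without a peak is called unmarked in the lists and not free of the mark.

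The regions of highest signal were not promoters of lineage genes. Of the 10 strongest, 8 lay between genes, 1 in an intron and 1 at a promoter. The strongest, at chr1:121483800-121485434, had a signal of 492834 in NTC 1, 435097 in NTC 2 and 400376 in NTC 3 (442769 ± 46704, SD, n = 3), and its nearest start was 162.295 kb away. The region at chr19:27731806-27733548 had 138350, 122603 and 111678, and that at chr9:66970961-66971747 had 117578, 106459 and 96316. In these 3 regions NTC 1 was the highest library and NTC 3 the lowest, whereas NTC 3 was the highest in most control regions.

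Several of these strongest regions held tandem repeats. The sequence of the strongest region matched itself at 60.4% of positions when shifted by 340 bp, that on chromosome 19 at 55.2% with the same shift, and that on chromosome 9 at 94.4% with a shift of 342 bp. Over the 10039 control regions wider than 800 bp, the median identity at the best shift was 30.6%, the 99th percentile was 39.0%, and 63 regions reached 50%. The region on chromosome 9 is itself narrower, at 787 bp. Reads from such repeats can be placed at several sites, and their part in these signals was not tested.

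The strongest promoter region, at chr6:35886350-35888335 and ninth of all, lay downstream of the main starts of SRPK1, within 1 kb of them but not over them, with a signal of 60513, 58913 and 68113 (62513 ± 4915, SD, n = 3). It held a peak in all 6 KO libraries. Among the 5 regions just outside the strongest 10 were those at the starts of RANBP6, a nuclear import protein, with 46217, 47281 and 51158, of USP16, a histone H2A deubiquitinase, with 45940, 41413 and 50037, and of PRDM10, with 39104, 40591 and 41105. The 3 libraries lay close together at these starts, with a CV of 2.58% to 9.42%. RANBP6 lies in the first 10 Mb of chromosome 9, as do the regions ranked 5 and 8, at chr9:5608254-5609972 and chr9:4901185-4902934. The 12 control promoter regions there had a median signal 2.57, 2.65 and 2.11 times that of all control promoter regions in NTC 1, NTC 2 and NTC 3. Among stretches of 10 Mb with at least 20 control promoter regions, which leaves out this one, the ratio was up to 2.85, on chromosome 2. That ratio was taken from the mean signal of the 3 libraries. The cause of such regional differences was not tested.

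Of 20163 protein-coding genes, 8495 (42.1%) had a peak within 1 kb of a start in all 3 NTC libraries and are called marked. A further 1130 had one in 2 libraries and 944 in 1, and 9594 (47.6%) had none. For single genes, too, a peak or its absence refers to this 1 kb on each side of any annotated start. A gene can thus be marked away from its canonical start. The canonical starts of TAL1, LMO2 and RUNX1, for example, lay 2813, 6446 and 6292 bp from the nearest NTC peak. Of the genes without an NTC peak, 1909 (19.9%) had a peak in at least 1 KO library and 588 in all 6. The median promoter signal of marked genes was 5947.

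The erythroid transcription factors were marked more often than genes in general by count, with 11 of 14 members marked (78.6%, against 42.1% of all protein-coding genes). GATA1 had a signal of 2638 in NTC 1, 2788 in NTC 2 and 2982 in NTC 3. KLF1 had 10347, 8488 and 11190. MYB, a factor of proliferating progenitors, had 11747, 14713 and 16187, and BCL11A, a repressor of fetal globin genes, had 15509, 19074 and 19502. The libraries lay close together in these 4 genes, with a CV of 6.17% to 15.9%. GATA1 was low among marked genes of all chromosomes, with the 24.5th percentile of their signal, and KLF1 was at the 73.4th. GATA1 lies on chromosome X, whose control regions had the lowest median signal of all chromosomes, 1140 against 2964 over all control regions. The part of the chromosome in this rank was not tested. LDB1, which bridges enhancer-bound GATA1 complexes, had 32037, 30525 and 11666, so that NTC 3 stood apart. The control region at its starts had a mean signal of 10017, against 24743 for the gene. The remainder came from peaks outside regions called in all 3 libraries, so that missing calls took part in this spread. STAT5A, a transducer of erythropoietin signalling and the highest of the list, had 28693, 30551 and 16393. Its control region likewise had a lower mean signal, 14275, than the gene, 25212. LMO2, an adaptor in the same GATA1 complex as LDB1 and the lowest marked member, had 1044, 252 and 926. HEMGN, a nuclear protein of blood precursors, had no peak in any of the 9 libraries.

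Of the megakaryocytic and stem cell factors, 6 of 10 were marked. GATA2, which precedes GATA1 in progenitors, had 24787, 23743 and 10363, while the control region at its starts had a mean signal of 9538. RUNX1, a factor of blood stem cells and megakaryocytes, had 966, 622 and 732. This signal lay in a region of 288 bp at chr21:36261609-36261896, away from the canonical start at chr21:36421599. In the 6 KO libraries the starts of RUNX1 had 1495 to 8910. A control region at chr21:36900550-36902152 had a mean signal of 33430. It lay in an intron of RUNX1 as annotated, 51.707 kb from the nearest annotated start. RUNX1 is on the minus strand, so this region lay upstream of the canonical start. FLI1, a megakaryocytic ETS factor, had a signal of 41598 in NTC 2 and no peak in NTC 1 or NTC 3, while it had a peak in all 6 KO libraries. MEIS1 had a peak within 1 kb of a start in NTC 1 alone, with 18159, but that peak belonged to a region called in all 3 NTC libraries (chr2:66720226-66722166, mean signal 19577), whose peaks in NTC 2 and NTC 3 lay outside the window. MECOM had no NTC peak and a peak in all 6 KO libraries. HOXA9 had no peak in any library.

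**Figure D3:**
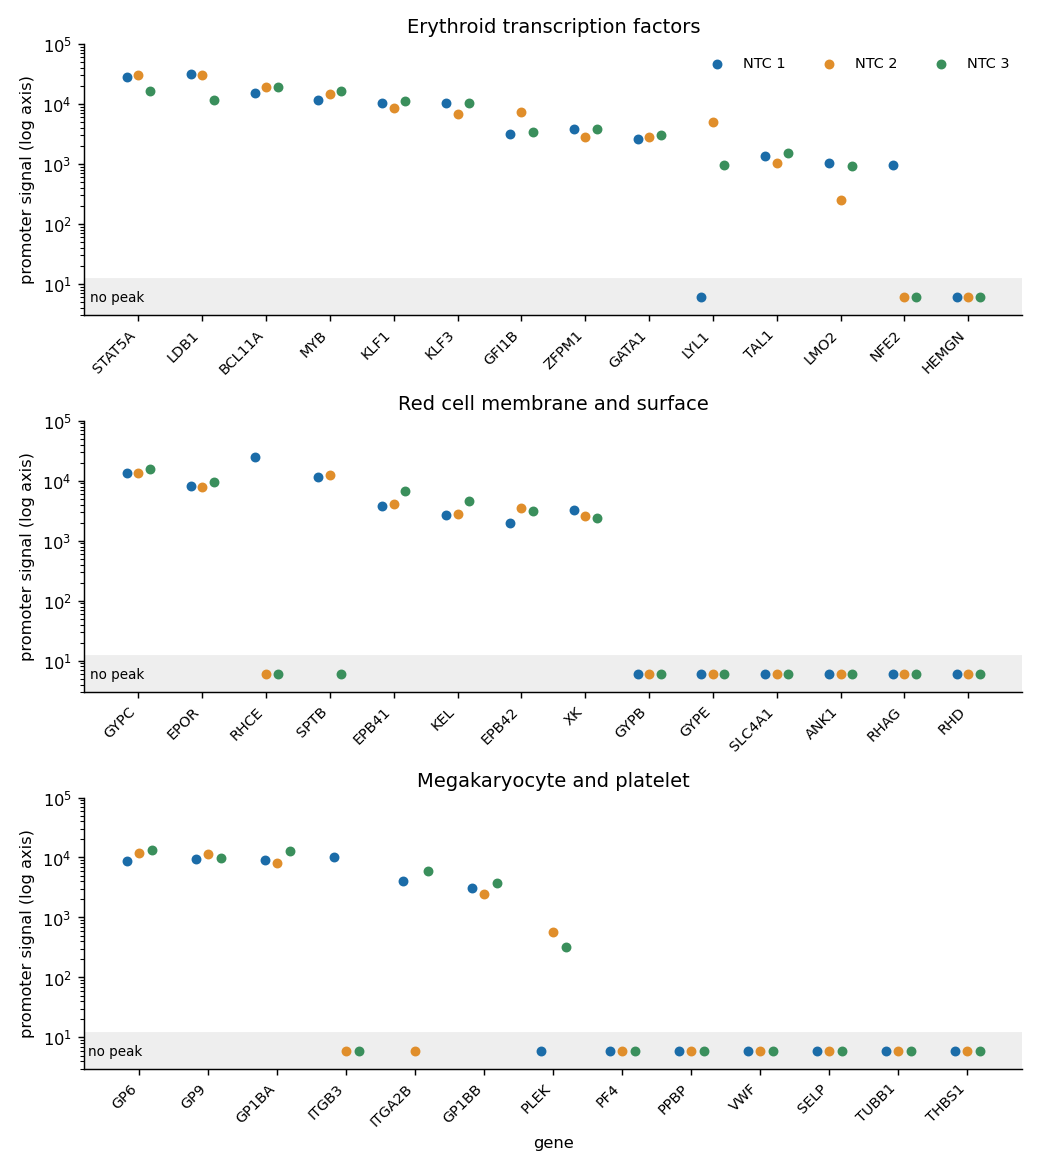
Promoter signal (log axis, calibrated coverage units) of genes from 3 lists, not every member being shown, 1 point for each NTC library. Points in the grey band have no peak within 1 kb of a start and no value. KLF1, EPOR and GP9 have 3 points close together, while RHCE has a single point. ITGB3 also has a single point, but a region called in all 3 NTC libraries begins 109 bp from its start, and the peaks of NTC 2 and NTC 3 in it lie beyond 1 kb.

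Among genes of the mature red cell, few globins but most genes of heme synthesis were marked. Of 11 genes, the globins and their chaperone AHSP, only HBE1, the embryonic beta-type globin, was marked, with 2872, 874 and 1779. Without NTC 1, or without NTC 3, 2 were marked. HBB, the adult beta globin, HBZ and AHSP had no peak in any library. HBA1 and HBA2, as well as HBG1 and HBG2, are near-identical pairs whose reads cannot be assigned with certainty. Of 10 genes of heme synthesis, 8 were marked. ALAS1, the enzyme of the first step in most tissues, had 7495, 6251 and 7096, while ALAS2, its erythroid form, had no peak in any of the 9 libraries. FECH, which inserts iron into the ring, had 9560, 7797 and 11310, and ABCB10, a mitochondrial transporter needed for heme production, had 13156, 14108 and 17972. CPOX had 21932 in NTC 1 and 21778 in NTC 2 and no peak in NTC 3.

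Of 16 red cell membrane and surface genes, 6 were marked, and 5 of the 7 without an NTC peak had a peak in a KO library. Of all protein-coding genes without an NTC peak, 19.9% had one. EPOR had 8281, 7713 and 9594. GYPC, a glycophorin that ties the membrane to the skeleton, was the highest marked member with 13577, 13344 and 15663. SLC4A1, the anion exchanger band 3, had no peak in any library. ANK1, which anchors spectrin to the membrane, had no NTC peak but a peak in all 6 KO libraries, and GYPB, GYPE, RHAG and RHD had one in 3, 4, 3 and 2 of them. RHCE had 24479 in NTC 1 and no peak in NTC 2 or NTC 3. GYPB and GYPE, and RHD and RHCE, have near-identical copies, so their peaks are uncertain. Of 10 genes of iron handling, 3 were marked, and 5 without NTC 3. SLC25A38, a mitochondrial glycine carrier, had 14635, 16095 and 15784, and TFRC, the transferrin receptor, had 8116 in NTC 2 only.

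Of 14 megakaryocyte and platelet genes, 5 were marked. GP9, a subunit of the platelet receptor for von Willebrand factor, had 9389, 11306 and 9661, GP1BA of the same receptor had 9171, 8201 and 12856, and the collagen receptor GP6 had 8827, 12009 and 13127. The CV of these 3 genes was 10.3% to 24.4%, and their means lay at the 73.7th to 78.5th percentile of marked genes. GP1BB, a further subunit of the receptor that holds GP9 and GP1BA, was marked but weaker. It had 3086, 2458 and 3815, with its mean at percentile 27.2. The genes of platelet granule proteins PF4, PPBP and VWF had no peak in any library. Of 8 stem and progenitor surface genes only CD34 was marked, with 6203, 2581 and 4189, while 3 were marked without NTC 2 and 2 without NTC 3.

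Lists of other lineages had marked shares of 12.5% to 25%, below the 42.1% of all protein-coding genes, as had the globin (9.09%), stem surface (12.5%), iron (30%), platelet (35.7%) and red cell membrane (37.5%) lists. The marked share also differed with CpG content, as defined below. It was 55.0% for CpG-rich promoters and 19.6% for the others, and the lists differed in CpG content. Of 16 myeloid genes 3 were marked, namely CEBPA, LYZ and CSF3R, and 12 had no peak in any of the 9 libraries, SPI1 and MPO among them. Of all protein-coding genes, 61.9% had a peak in at least 1 of the 9 libraries. LYZ, lysozyme, had 2599, 3199 and 4011. Of 16 lymphoid genes 4 were marked, among which CD79B, a B cell receptor subunit, had 5845, 5301 and 7327. Of 16 non-hematopoietic genes 2 were marked, PAX6 with 15532, 11118 and 10635 and COL1A1 with 2548, 2514 and 3068. Of 18 housekeeping genes 11 were marked, and all 18 had a peak in some library, against 61.9% of all protein-coding genes. EEF1A1, a translation elongation factor of every cell, had no NTC peak but a peak in all 6 KO libraries, and TBP had none in NTC and one in 4 KO libraries.

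**Figure D4:**
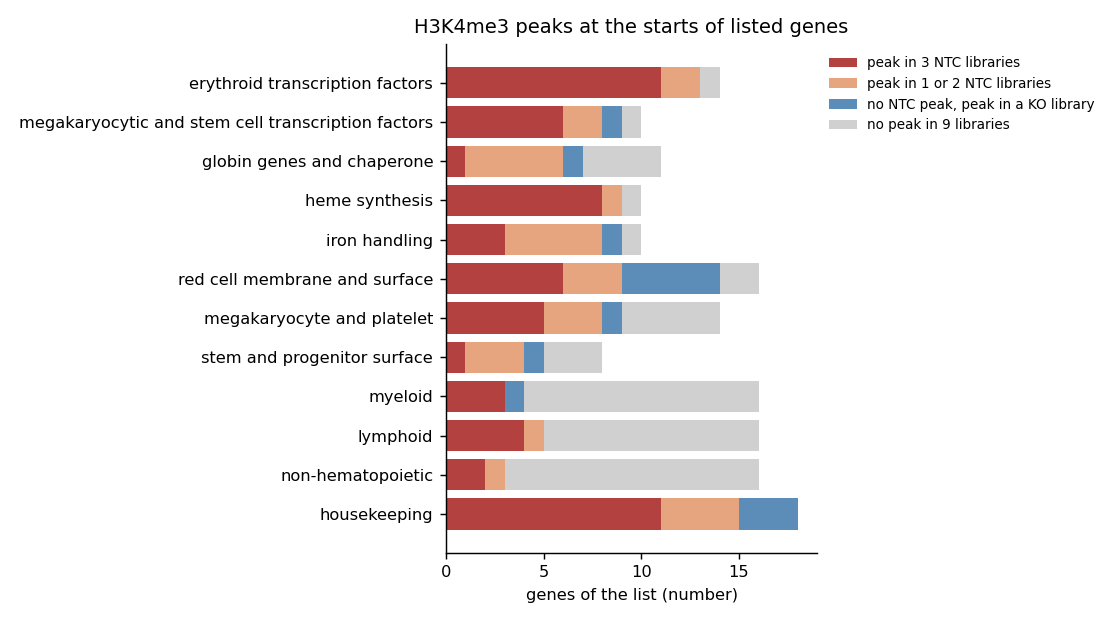
Number of genes in each list with a peak within 1 kb of a start in all 3 NTC libraries, in 1 or 2 of them, in no NTC library but in a KO library, or in none of the 9 libraries. Erythroid factors (11 of 14) and heme synthesis (8 of 10) have the longest marked part relative to their size, and 12 of 16 myeloid genes had no peak in any library. Of all protein-coding genes, 61.9% had a peak in at least 1 of the 9 libraries.

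Marked promoters were richer in CpG. A promoter was called CpG-rich where the 500 bp on each side of the start had an observed over expected CpG ratio of at least 0.6 and a GC content of at least 50%. Of 12922 CpG-rich promoters 55.0% were marked in all 3 NTC libraries, and of the other 6959 promoters 19.6% were. No NTC peak and no KO peak was found at 19.04% of the CpG-rich promoters and at 71.7% of the others. Among regions, the median ratio was 0.648 at promoters and 0.239 in introns. The starts of GATA1 and GP9 had ratios of 0.179 and 0.214, and both genes were marked. The gene lists differed in their median ratio. It was 0.664 for erythroid factors, 0.682 for megakaryocytic and stem cell factors, 0.716 for heme synthesis and 0.824 for housekeeping genes. It was 0.270 for myeloid, 0.234 for lymphoid and 0.478 for non-hematopoietic genes. For globin, platelet and red cell membrane genes it was 0.207, 0.245 and 0.252, and for stem surface and iron genes 0.676 and 0.798. Its part in the marked shares of the lists was not tested.

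The motif AGATAA, bound by GATA factors, was searched on both strands in the 300 bp upstream of each start. It was present in 8.22% of all promoters, in 5.61% of those marked in all 3 NTC libraries and in 12.5% of those without a peak in any library. The motif CCNCNCCC, bound by KLF factors, was present in 70.1%, 77.6% and 58.9%. The GC content of these groups differed (median 64.0% in marked promoters and 55.5% in those without a peak), and its part in the motif shares was not tested.

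In each NTC library a smaller share of peaks lay at promoters than in the KO libraries. It was 65.1%, 64.5% and 63.5% in NTC 1 to 3 (64.4% ± 0.814, SD, n = 3) and between 75.8% and 89.0% in the 6 KO libraries (83.4% ± 5.71), with no overlap. The share in gene bodies was 23.4% ± 0.542 in NTC and 6.55% ± 0.594 in KO, again with no overlap. In two-sided exact permutation tests over the 84 arrangements of the group labels, both differences had p = 0.0238, the smallest the design allows, and p = 0.0357 after Benjamini-Hochberg adjustment over 3 shares. The intergenic share was 12.2% ± 0.273 in NTC and 10.1% ± 5.22 in KO (exact permutation p = 0.5).

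These shares moved with the length of the lists. The NTC lists held 21724 to 21940 peaks and the KO lists 3159 to 9369. With only the 3159 strongest peaks of each library, a setting chosen after seeing the data, the promoter share was 85.8%, 85.2% and 85.0% in NTC and 74.3% to 90.0% in KO. The difference, NTC minus KO, was then 2.36 percentage points in place of -19.01, with the direction turned and an adjusted exact permutation p of 0.738. The gene-body difference was 2.72 in place of 16.9 percentage points, with an adjusted exact permutation p of 0.0714. The gene-body shares still did not overlap (7.79% to 8.67% in NTC and 3.55% to 7.44% in KO). Their exact permutation p before adjustment was therefore the smallest the design allows, 0.0238.

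**Figure D5:**
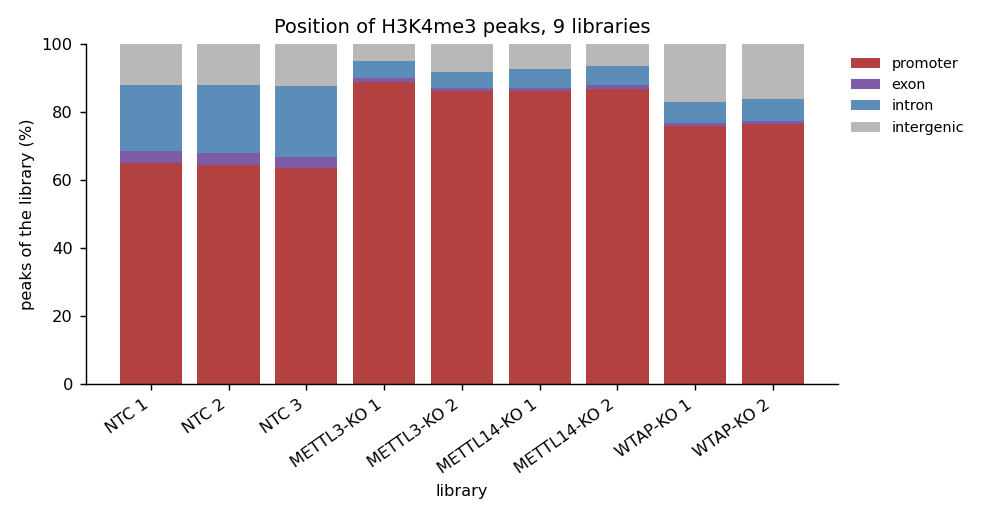
Share of the peaks of each of the 9 libraries (%) at promoters, exons, introns and between genes, all peaks counted. NTC libraries have 63.5% to 65.1% at promoters and KO libraries 75.8% to 89.0%, from lists of unequal length.

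Control regions of high signal held a KO peak more often than those of low signal. Between 6.53% and 32.8% of control promoter regions held a peak in a single KO library, against 1.00% to 3.64% of the intron regions and 3.90% to 13.3% of the intergenic regions. In WTAP-KO 1 the share was higher for intergenic regions (7.20%) than for promoter regions (6.53%). In the highest quartile of signal it was 20.04% to 75.2% of promoter regions and 14.3% to 38.0% of the other regions. In the lowest quartile it was at most 0.680% and 1.10%. Over all control regions the share was highest in the METTL3-KO libraries, which had the longest lists among KO libraries.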

How the data were processed

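H3K4me3 CUT&RUN libraries of HEL cells were analysed from the deposited peak lists, 1 per library. The authors aligned paired reads with Bowtie to hg19 and, for a yeast spike-in, to sacCer3, used the spike-in for calibration, took out duplicates with Picard and called peaks per library. Versions were not given in the sources used here. Column 4 was used as the signal deposited by the authors. It is not a count, so no count model was used, and the depth is unknown. Starts were read as counted from 0 and are printed from 1. Groups and replicate numbers came from the labels. The 2 mitochondrial peaks were left out. Annotation was GENCODE v44 lifted to GRCh37, which had all 25 chromosome names of the lists. A gene's promoter was the 1 kb on each side of any of its starts. Class shares of NTC and KO libraries were tested by exact permutation, two-sided (scipy 1.17.1). Named genes were members of 12 written lists and the genes at the strongest regions, 5 regions just outside the strongest 10, and sequences were shown for 5 genes. Members and lists were chosen with earlier results of these data known. Some list members are not reported here by name. The merging, classes and overlaps were tested on simulated data. Alternatives were the window, merging distance, overlap, peak threshold, number of libraries, covered bases, the highest peak, scaling by the median, the replicate block and leaving out each library. The code ran under Python 3.11.15 with numpy 2.4.6, pandas 2.3.3 and matplotlib 3.10.9.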

Additional observations from a re-analysis of the deposited data

Results flagged for a closer look

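The intergenic share of peaks moved in opposite directions in the KO groups relative to NTC, in which it was 11.9% to 12.5%. The KO minus NTC difference was -5.60 percentage points in METTL3-KO and -5.24 in METTL14-KO, with both libraries of each below every NTC library. It was 4.47 percentage points in WTAP-KO, with shares of 16.3% and 17.03%, above every NTC library. The difference between the KO groups was not tested. Among the 3159 strongest peaks of each library, the intergenic share was 6.14% to 6.46% in NTC, 6.14% and 11.3% in METTL3-KO, 9.34% and 6.46% in METTL14-KO, and 17.03% and 18.3% in WTAP-KO, so that METTL3-KO and METTL14-KO were then no longer below NTC in every library.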

How the results depend on the processing

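The number of control regions was 13936 with peaks within 1 kb joined, 13865 where each library had to cover 50% of the region, 20240 when called in at least 2 libraries and 8380 with peaks at or above the library's median signal. The promoter share of regions was 63.0% with a 500 bp window, 75.4% with 3 kb, 60.2% with coding starts only, 74.1% of covered bases, 78.7% with peaks at or above the median, and 66.6% to 67.6% with an NTC library left out. The 60 marked members of the gene lists were 103 when a peak in any of the 9 libraries counted, an alternative chosen after seeing the data. With it, the 8495 marked protein-coding genes were 12478. The mean Spearman's rho was 0.942, and 0.935 with only the highest peak of a region counted. Of single lists, leaving out 1 library moved iron handling from 3 to 5, globins from 1 to 2 and stem surface genes from 1 to 3 or 2. All 10 strongest regions remained in the strongest 10 under the 5 alternatives run.

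The NTC minus KO difference in promoter share was -8.84 percentage points over covered bases (adjusted exact permutation p = 0.321) and -2.16 with peaks at or above the median (0.762), and it reversed to 2.36 with the 3159 strongest peaks per library. For gene bodies it was 11.0 over covered bases (0.0714), 8.09 with peaks at or above the median (0.0714) and 2.72 with equal numbers (0.0714). The intergenic difference was 2.12, and -2.17, -5.93 and -5.09 under these 3 settings. With the replicate number as a block, NTC and KO libraries of the same number gave -18.6 percentage points for promoters and 16.6 for gene bodies, each with an adjusted exact permutation p of 0.188; this block cannot give a p below 0.125. Leaving out each library gave -20.5 to -17.9 for promoters, 16.6 to 17.1 for gene bodies and 1.12 to 3.51 for intergenic peaks, and without 1 NTC library the smallest p possible is 0.0714. The depth is unknown, so no interval for counting error can be given. The cause of these changes was not tested.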
